A study of Mus musculus with 3 samples.

Results

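Start sites of long intergenic noncoding RNAs (lincRNAs) were examined in the H3K4me1 enriched regions of mouse islets treated with a low dose of 3 cytokines. A region was taken when the transcriptional start site (TSS) closest to its midpoint belonged to a gene annotated as lincRNA in GENCODE M1 and lay within 2 Kb of the midpoint or inside the region. On chromosomes 1 to 19 this rule chose 531 of 65124 regions, out of 65709 in the whole list, and they fell to 508 of the 1232 annotated lincRNA genes. Of these genes, 487 had 1 region, 20 had 2 and 1 had 4. No region was equally close to the TSS of a lincRNA and of another kind of gene.

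The series holds 3 samples, and the list analysed here came from 1 H3K4me1 ChIP-seq library of cytokine treated islets; the RNA-seq libraries of untreated and of cytokine treated islets were not analysed here. The islets were cultured for 4 days with IFNγ at 1.6 ng/ml, Il-1β at 0.25 ng/ml and TNFα at 0.16 ng/ml, and the DNA of 4 immunoprecipitations went into the library. Mice of both sexes were used; the labels give the strain as CD1 and the age as 8 to 12 weeks, whereas the methods name ICR mice with a narrower age range. No genetic change or Cre driver is given. There is no replicate library, so no difference below has a test, and every 95% exact binomial interval covers counting error over genes or regions only. The list gives the position of each region on a grid of 200 bp and no read count, so the depth behind a region is unknown, and a TSS without a region was not called at this depth rather than shown to lack the mark. Untreated islets had no list here, so nothing below separates regions gained with the cytokines from regions present before.

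lincRNAs are long transcripts that encode no known protein, most of which lie outside the exons of protein-coding genes. Some act on neighbouring genes, others in the nucleus or cytoplasm, and for many no function is known. H3K4me1 is laid down at enhancers and along the flanks of promoters, while the core of an active promoter more often carries H3K4me3.

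A whole islet holds several cell types, so a mark present in few cells and a weak mark in many cannot be told apart. A region covered a TSS of 1 of 9 islet marker genes, the insulin gene Ins2, and lay within 2 Kb of a TSS of 6 of the 9. None of the 4 acinar markers had a region in either sense, whereas 2 of 3 endothelial markers (Pecam1 and Kdr) and 1 of 3 leukocyte markers (Cd68) had a TSS inside one. With 30.0% of all genes and 40.6% of protein-coding genes holding a TSS in a region, lists of 3 to 9 genes do not tell the cell types apart. The part of endothelial cells and leukocytes in the lincRNA regions was not tested.

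The reference sequence around 8 of these start sites is given first, from 150 bases before the TSS to 50 bases after it, 5′ to 3′ on the strand of the gene, in mm9. Capitals mark each CpG. The first 5 are CpG-rich start sites and the last 3 CpG-poor ones, which is the split used for all lincRNA genes below, and each belongs to a region described below.
Miat (chr5:112657919-112658118, minus strand, 18 CpG): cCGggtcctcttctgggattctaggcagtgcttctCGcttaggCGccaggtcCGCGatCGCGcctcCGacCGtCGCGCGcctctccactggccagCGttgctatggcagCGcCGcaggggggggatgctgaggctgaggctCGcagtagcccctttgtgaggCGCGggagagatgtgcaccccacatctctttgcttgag
Pvt1 (chr15:61869466-61869665, plus strand, 25 CpG): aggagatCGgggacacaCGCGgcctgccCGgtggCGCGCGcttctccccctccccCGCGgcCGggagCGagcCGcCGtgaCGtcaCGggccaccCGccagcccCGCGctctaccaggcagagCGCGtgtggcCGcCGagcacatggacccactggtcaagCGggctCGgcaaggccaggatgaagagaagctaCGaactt
Snhg5 (chr9:88417672-88417871, minus strand, 17 CpG): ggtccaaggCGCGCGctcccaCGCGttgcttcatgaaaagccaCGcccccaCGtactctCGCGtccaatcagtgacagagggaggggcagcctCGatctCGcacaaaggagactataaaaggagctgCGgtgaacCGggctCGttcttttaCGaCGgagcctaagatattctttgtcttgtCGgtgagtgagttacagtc
D730003I15Rik (chr1:193048203-193048402, plus strand, 26 CpG): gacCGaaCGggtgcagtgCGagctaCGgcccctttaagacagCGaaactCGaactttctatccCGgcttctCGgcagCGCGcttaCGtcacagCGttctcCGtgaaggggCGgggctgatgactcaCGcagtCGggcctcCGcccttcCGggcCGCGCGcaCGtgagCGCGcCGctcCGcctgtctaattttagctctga
1700016P03Rik (chr11:74985912-74986111, plus strand, 25 CpG): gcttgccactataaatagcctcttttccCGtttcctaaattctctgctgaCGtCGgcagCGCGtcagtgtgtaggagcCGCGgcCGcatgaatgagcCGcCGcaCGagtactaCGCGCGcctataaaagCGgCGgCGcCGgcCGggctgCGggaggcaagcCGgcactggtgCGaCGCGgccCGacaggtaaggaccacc
Gm17289 (chr19:10466176-10466375, minus strand, 0 CpG): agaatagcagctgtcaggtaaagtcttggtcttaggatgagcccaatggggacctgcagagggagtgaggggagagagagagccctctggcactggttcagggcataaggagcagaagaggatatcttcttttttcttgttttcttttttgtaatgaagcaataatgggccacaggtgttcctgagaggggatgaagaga
Gm14005 (chr2:128254580-128254779, minus strand, 2 CpG): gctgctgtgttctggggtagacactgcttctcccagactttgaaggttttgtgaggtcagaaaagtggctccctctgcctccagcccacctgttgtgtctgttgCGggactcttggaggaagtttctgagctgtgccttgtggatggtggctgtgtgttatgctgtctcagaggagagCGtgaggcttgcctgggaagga
Sox2ot (chr3:34564015-34564214, plus strand, 2 CpG): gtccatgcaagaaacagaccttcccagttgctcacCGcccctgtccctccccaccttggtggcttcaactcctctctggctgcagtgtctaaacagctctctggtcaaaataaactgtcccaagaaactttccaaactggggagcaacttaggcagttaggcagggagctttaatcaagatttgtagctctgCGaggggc
Among the printed stretches, 2 matches to TATAAA were found at 1700016P03Rik and 1 at Snhg5, 2 matches to GGGCGG and 1 to TGANTCA at D730003I15Rik, 1 match to GGGCGG at the CpG-poor Sox2ot, 1 match to CCAAT at each of Snhg5 and Gm17289, and no match to any searched motif at Miat, Pvt1 or Gm14005. A match is a run of letters and was not tested as a binding site.

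To determine how often lincRNA genes carried the mark at their start, TSS positions were set against all regions, without the rule above. A region held at least 1 TSS of 539 of the 1232 lincRNA genes, or 43.8% (95% exact binomial interval 41.0% to 46.6%). For all 34653 annotated genes on these chromosomes the share was 30.0%, for protein-coding genes 40.6% (40.0% to 41.3%), for processed transcripts 22.8% (21.1% to 24.5%) and for pseudogenes 3.35% (2.82% to 3.95%). Protein-coding genes have more start sites, with a mean of 3.14 per gene against 1.56 for lincRNAs. With the first TSS of each gene alone, a region held 497 lincRNA starts, or 40.3% (37.6% to 43.1%), against 32.4% (31.8% to 33.0%) of protein-coding genes and 24.7% of all genes. Among genes with a single TSS, the shares were 40.2% for 898 lincRNA genes (37.0% to 43.5%) and 23.8% for 9440 protein-coding genes (22.9% to 24.7%). The intervals of the 2 kinds of gene overlapped when any TSS was counted. With 1 TSS per gene, the lincRNA interval lay above the protein-coding one on both counts.

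The gene models were set side by side. lincRNA genes with a TSS in a region had a median of 3 exons and a length of 7.82 Kb, and those without had 3 exons and 8.55 Kb. Those with one had more start sites, with a mean of 1.79 against 1.39, and 65.9% of them had a single transcript against 76.2%. The share of lincRNA genes with a TSS in a region ran from 35.3% on chromosome 10, with 51 genes, to 54.5% on chromosome 15, with 44 genes. The number of regions at lincRNA start sites ran from 15 on chromosome 19, with 35 lincRNA genes, to 58 on chromosome 2, with 113.

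The rule and the TSS count do not choose the same genes. Of the 1232 lincRNA genes, 344 had a TSS in a region and were also the closest gene of one, 195 had a TSS in a region whose midpoint was closer to the TSS of another gene, and 164 were the closest gene of a region that stopped short of every TSS. The other 529 had neither. For 196 of these the nearest region edge was within 2 Kb of a TSS, for 220 it was 2 to 20 Kb away and for 113 more than 20 Kb, with a median of 4575 bp.

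The 531 regions had the same median width as those at protein-coding start sites. It was 1600 bp (exact interval of the median 1400 to 1600 bp). The lower and upper quartiles were 800 and 3200 bp, and the extremes were 200 and 52200 bp. The 14192 regions chosen by the same rule at protein-coding start sites had a median of 1600 bp, and 628 regions at processed transcripts had 1400 bp, while all autosomal regions had 1200 bp. Regions wider than 10 Kb numbered 17, or 3.20% (1.88% to 5.08%), against 3.28% at protein-coding start sites and 2.03% of all autosomal regions. A single bin of 200 bp made up 13 regions, or 2.45% (1.31% to 4.15%). Together the 531 regions covered 1386.2 Kb.

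Of the 531 regions, 343 covered the TSS, which is 64.6% (60.4% to 68.7%), and 188 lay beside it. At protein-coding start sites the covering share was 61.8% (61.0% to 62.6%). Covering regions had a median width of 2400 bp and reached a median of 1019 bp upstream and 1008 bp downstream of the TSS, whereas covering regions at protein-coding start sites reached 904 bp upstream and 1323 bp downstream. Regions beside the TSS had a median width of 800 bp and a median gap of 463 bp. They lay downstream in 121 of 188 cases, or 64.4% (57.1% to 71.2%), against 54.9% (53.6% to 56.3%) at protein-coding start sites. The rule bears on this share, since a region upstream of a lincRNA that is closer to the TSS of a neighbour is counted for the neighbour.

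All 188 regions beside the TSS were members through the distance limit, and a limit of 1000 bp left 438 of the 531. The midpoint was more than 2 Kb from the TSS for 34 regions that were kept because they cover it. Just inside the limit were the regions of 8430429K09Rik and Gm16767 at 1917.5 bp and of Bbip1 at 1961.5 bp. Just outside it were those of Gm16950 at 2024.5 bp, Gm17578 at 2025.5 bp and 2310014F06Rik at 2028.5 bp.

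Neighbouring protein-coding start sites were then examined. A protein-coding TSS was within 2 Kb of the lincRNA TSS for 263 of 531 regions, or 49.5% (45.2% to 53.9%). Over all lincRNA genes a protein-coding TSS was within 2 Kb of the first TSS for 666 of 1232, or 54.1% (51.2% to 56.9%), so this arrangement is not particular to the regions, and the rule leaves out regions closer to the neighbour. Judged at the nearest protein-coding TSS, which can be an internal one, the 2 genes ran apart from each other in 143 of these. In 119 the lincRNA TSS lay inside the protein-coding gene on the opposite strand, and in 1 the genes shared a strand. A single region covered both start sites in 131 of the 263 (49.8%; 43.6% to 56.0%), and in 53 of the 143 that ran apart (37.1%; 29.1% to 45.5%). The nearest protein-coding TSS was 2 to 20 Kb away for 131 regions, 20 to 100 Kb for 112, and more than 100 Kb for 25 (4.71%; 3.07% to 6.87%).

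Set against gene bodies, 200 of the 531 midpoints (37.7%; 33.5% to 41.9%) fell between the ends of a protein-coding gene, against 62.0% of all autosomal regions. The rule bears on this share, since it leaves out regions whose closest TSS is that of a protein-coding gene. No protein-coding gene was overlapped by 283 regions (53.3%). An exon of one was overlapped by 189 (35.6%), and 59 touched protein-coding genes in introns only (11.1%). An exon of the lincRNA gene itself was overlapped by 410 of 531 (77.2%; 73.4% to 80.7%). Regions inside protein-coding genes were wider, with a median of 1800 bp (1600 to 2200 bp) against 1400 bp (1200 to 1600 bp), and more of them covered the lincRNA TSS (74.5%; 67.9% to 80.4%, against 58.6%; 53.1% to 64.0%).

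Because so many lincRNAs start beside a protein-coding gene, the share of first TSS inside a region was taken by distance to the nearest TSS of another protein-coding gene. With such a TSS within 2 Kb, a region held 329 of 666 lincRNA starts (49.4%; 45.5% to 53.3%) and 37.5% (35.9% to 39.2%) of 3276 protein-coding starts. From 2 to 20 Kb the shares were 30.5% (25.3% to 36.1%) and 31.9%, and from 20 to 100 Kb 30.6% (24.5% to 37.2%) and 29.9%. Beyond 100 Kb, 13 of 58 lincRNA starts were inside a region (22.4%; 12.5% to 35.3%), against 35.4% (33.4% to 37.5%) of protein-coding starts. The lincRNA interval lay above the protein-coding one within 2 Kb and overlapped it at the other 3 distances.

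The state of the neighbour went with that of the lincRNA. Where the TSS of the neighbouring protein-coding gene within 2 Kb was inside a region, so was the lincRNA TSS in 297 of 333 cases (89.2%; 85.4% to 92.3%). Where it was not, the lincRNA TSS was inside one in 32 of 333 (9.61%; 6.67% to 13.3%). For pairs of protein-coding genes these shares were 88.6% and 8.04%. Start sites this close often share a region, so they are not independent.

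To examine the sequence of the start sites, the 300 bases from 250 before to 50 after each first TSS were read from mm9. CpG observed over expected, the number of CpG divided by the number given by the product of the C and G contents, was used with GC content, and a start site was called CpG-rich when these were at least 0.6 and at least 50%. The median ratio was 0.623 (0.595 to 0.672) for the 497 lincRNA starts inside a region and 0.424 (0.385 to 0.491) for the 735 in none. The same values for protein-coding genes were 0.705 and 0.381. CpG-rich start sites made up 50.5% (46.0% to 54.98%) of the lincRNA starts inside a region, as at Miat and Pvt1 above, and 37.3% (33.8% to 40.9%) of those in none.

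The shares were then taken by CpG content and distance together. At CpG-rich start sites, a region held 251 of 525 lincRNA starts (47.8%; 43.5% to 52.2%) and 45.3% (44.3% to 46.3%) of protein-coding starts. Of these lincRNA starts 417 had a protein-coding TSS within 2 Kb, and 48.2% of them (43.3% to 53.1%) were inside a region, against 38.2% (36.2% to 40.3%) of protein-coding starts at this distance. From 2 to 20 Kb the CpG-rich shares were 51.8% (38.0% to 65.3%) and 51.9%, and from 20 to 100 Kb, with 45 lincRNA genes, the intervals overlapped as well. At CpG-poor start sites, a region held 246 of 707 lincRNA starts (34.8%; 31.3% to 38.4%) and 22.7% (22.0% to 23.4%) of protein-coding starts. The CpG-poor lincRNA share was 51.4% (45.0% to 57.8%) with a protein-coding TSS within 2 Kb, 25.4% (20% to 31.5%) from 2 to 20 Kb, 28.1% (21.5% to 35.4%) from 20 to 100 Kb and 19.6% (9.82% to 33.1%) beyond. The protein-coding shares at these distances were 36.2%, 21.4%, 19.7% and 28.6%. The lincRNA interval lay above the protein-coding one within 2 Kb and from 20 to 100 Kb, and overlapped it at the other distances.

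**Figure D1:**
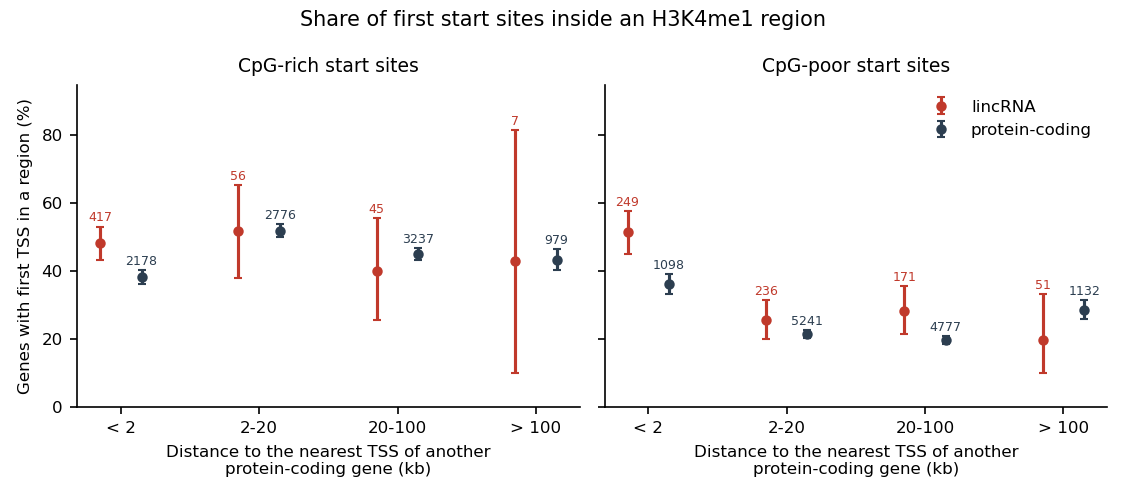
Percentage of genes whose first TSS lies inside an H3K4me1 enriched region (y axis) by distance to the nearest TSS of another protein-coding gene (x axis, Kb), for CpG-rich start sites (left) and CpG-poor ones (right). Points are lincRNA (red) and protein-coding genes (blue), bars are 95% exact binomial intervals and the numbers are genes; within 2 Kb, CpG-poor lincRNA starts sit at 51.4% and protein-coding ones at 36.2%, and the bar of the 7 CpG-rich lincRNA genes beyond 100 Kb spans most of the scale.

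Among the 531 regions themselves, the TSS was CpG-rich at 234 (44.1%; 39.8% to 48.4%), with a median ratio of 0.583 (0.538 to 0.633). Regions that covered the TSS had the lower ratio, with a median of 0.555 (0.514 to 0.586) against 0.699 (0.611 to 0.762) for regions beside it. At CpG-rich start sites 56.8% (50.2% to 63.3%) of the regions covered the TSS, and at CpG-poor ones 70.7% (65.2% to 75.8%). Median widths were 1400 bp (1200 to 1600 bp) and 1600 bp (1400 to 1800 bp). The rule bears on these ratios and covering shares, since a covering region closer to the TSS of a neighbour is counted for the neighbour. Without the rule the order was the opposite, with 47.8% of CpG-rich and 34.8% of CpG-poor lincRNA first starts inside a region.

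In the same windows, GGGCGG (GC box, the core bound by Sp1 family factors) was found on either strand at 49.5% (45.0% to 54.0%) of the 497 lincRNA starts inside a region, at 37.7% (34.2% to 41.3%) of those in none, at 60.9% of protein-coding starts inside a region and at 31.5% of the starts of all genes. TATAAA, the core promoter element bound by TBP, was found at 6.44% (4.45% to 8.97%), 10.7% (8.60% to 13.2%), 7.44% and 15.8% of these in the same order. CCAAT was found at 37.0%, 34.2%, 36.3% and 38.0%. Cores bound by factors downstream of the 3 cytokines were searched as well, and their shares are higher in a longer window. GGGNNTTCC (NF-kB) was found at 8.25% (5.99% to 11.03%) of lincRNA starts inside a region and 6.12% (4.50% to 8.11%) of those in none, GAAANNGAA (IRF) at 7.85% (5.64% to 10.6%) and 9.39% (7.38% to 11.7%), TGANTCA (AP-1) at 6.44% and 5.99%, and TTCNNNGAA (the STAT site GAS) at 4.63% (2.96% to 6.86%) and 8.44% (6.53% to 10.7%). Over the starts of all genes these were 5.25%, 9.84%, 7.53% and 8.19%. The intervals of lincRNA starts with and without a region overlapped for each of these 4 cores. Searches counted both strands, and matches to different motifs could overlap.

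The mark was then followed away from the start site. At each position from 5 Kb before to 5 Kb after the first TSS of the 1232 lincRNA genes, the share covered by any region was taken, with no use of the rule. It was 40.3% at the TSS and 41.2% (38.5% to 44.0%) 200 bp into the gene, and fell to 21.6% (19.3% to 24.0%) at 2 Kb into the gene. Protein-coding genes held 32.4% at the TSS and 28.6% (28.0% to 29.2%) at 2 Kb. On the upstream side the order was the opposite, with 27.4% (24.96% to 30.0%) of lincRNA genes and 12.9% (12.4% to 13.3%) of protein-coding genes covered at 2 Kb before the TSS. Coverage of lincRNA genes was thus higher upstream than downstream at this distance, and that of protein-coding genes the reverse.

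For genes with no other TSS within 10 Kb, the difference upstream was smaller. The order within lincRNA genes turned over, with the higher share downstream at 2 Kb as in protein-coding genes, though the 2 lincRNA intervals overlapped. The 285 isolated lincRNA genes were covered at the TSS in 28.1% of cases (22.9% to 33.7%), against 29.7% (28.8% to 30.5%) of 11918 isolated protein-coding genes. At 2 Kb upstream the shares were 10.2% (6.92% to 14.3%) and 6.55% (6.12% to 7.01%), and at 2 Kb into the gene 17.5% (13.3% to 22.5%) and 25.5% (24.7% to 26.3%). At 3 Kb into the gene they were 10.9% (7.51% to 15.1%) and 19.4% (18.7% to 20.1%). Isolated lincRNAs had a share at the TSS whose interval overlapped that of protein-coding genes, and lower shares inside the gene.

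**Figure D2:**
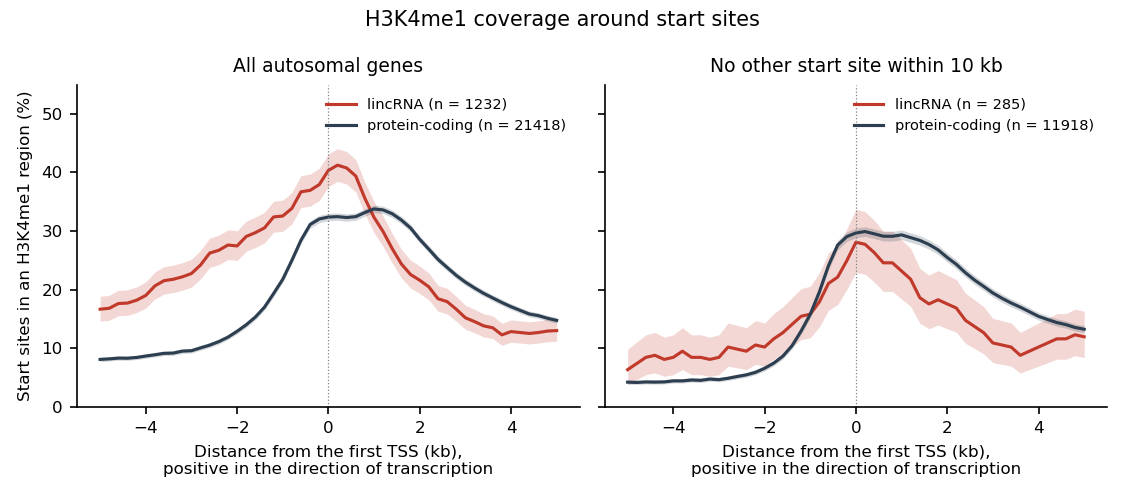
Percentage of start sites covered by an H3K4me1 enriched region (y axis) at each distance from the first TSS (x axis, Kb, positive in the direction of transcription), for all autosomal genes (left) and genes with no other TSS within 10 Kb (right). Lines are lincRNA (red) and protein-coding genes (blue), with 95% exact binomial intervals shaded; the lincRNA line on the left stands at 27.4% at 2 Kb upstream and 21.6% at 2 Kb downstream, and on the right at 10.2% and 17.5%.

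In 386 cases the lincRNA and its neighbour started within 2 Kb and ran apart, with a median of 153 bp between the start sites. Both start sites were inside a region in 164 pairs, the lincRNA TSS alone in 15, the protein-coding TSS alone in 11 and neither in 196 (50.8%). Such pairs set both sides of 1 promoter side by side. At 400 bp into the gene the lincRNA side was covered in 48.2% (43.1% to 53.3%) and the protein-coding side in 42.7% (37.8% to 47.8%). At 1 Kb this was 34.2% (29.5% to 39.2%) against 45.3% (40.3% to 50.4%), at 2 Kb 23.1% (18.95% to 27.6%) against 43.8% (38.8% to 48.9%), and at 3 Kb 17.1% (13.5% to 21.2%) against 36.0% (31.2% to 41.0%). At 2 Kb, 34 pairs were covered on the lincRNA side alone, 114 on the protein-coding side alone and 55 on both. The lincRNA side made up 23.0% (16.5% to 30.6%) of the pairs covered on 1 side. From 1 to 3 Kb into the gene, the mark was thus present more often on the protein-coding side than on the lincRNA side of the same pairs.

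**Figure D3:**
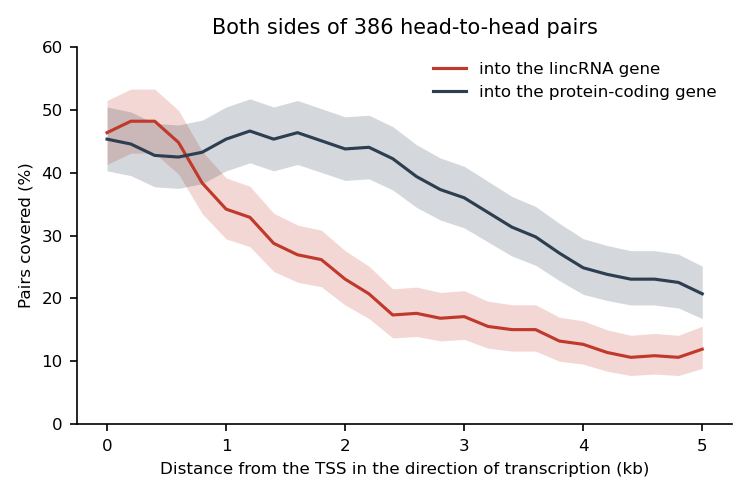
Percentage of 386 pairs of a lincRNA and a protein-coding gene that start within 2 Kb and run apart (y axis) with an H3K4me1 enriched region at each distance into the gene (x axis, Kb). The lines follow the lincRNA gene (red) and the protein-coding gene (blue) from their own TSS, with 95% exact binomial intervals shaded; they start at 46.4% and 45.3% and stand at 23.1% and 43.8% at 2 Kb.

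Of 37 listed names of long known lincRNAs and 33 of genes that host small RNAs, 67 in all, 52 were found among autosomal genes, 22 of them through the Ensembl identifier or a synonym that RefSeq gives for a name not used in GENCODE M1. This second way of matching was added after the values of the others were seen. Of the 52, 30 were annotated as lincRNA. Of the 30, 18 had a TSS in a region and 16 were the closest gene of a region; a TSS was in one for 43.8% of all lincRNA genes and 30.0% of all genes, and the names were chosen with earlier results known. Malat1, Neat1, H19 and Hotair, among others, are annotated as processed transcripts in GENCODE M1 and were outside the rule.

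Miat, a nuclear lincRNA first linked to myocardial infarction, starts at position 112657968 of chromosome 5 on the minus strand. A region of 1800 bp (chr5:112656401-112658200) covered this TSS and reached 232 bp upstream and 1567 bp into the gene, outside protein-coding genes. Its sequence above holds 18 CpG in 200 bases. Pvt1, which lies downstream of the Myc oncogene and is often amplified with it, had a region of 1000 bp (chr15:61869401-61870400) over its first TSS and the one closest to the midpoint, at 61869616, at 50639 bp from the nearest TSS of Myc. Tug1, taurine upregulated gene 1, had a region of 1400 bp (chr11:3547201-3548600). It covered an internal TSS at 3547529 and reached 328 bp downstream of it, and ended before the first TSS at 3548815. All 3 regions overlapped an exon of the lincRNA and no protein-coding gene.

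Among lincRNAs beside developmental transcription factors, Sox2ot spans Sox2, a factor of stem cells and the nervous system. It has 16 annotated start sites and had 2 regions. The one of 2200 bp (chr3:34562201-34564400) covered a CpG-poor TSS at 34564165, whose sequence is printed above, 15107 bp from the nearest TSS of Sox2. The other, of 1200 bp (chr3:34095801-34097000), began 15 bp downstream of the TSS at 34095786. Six3os1, on the opposite strand of Six3, had a region of 600 bp (chr17:86017401-86018000) over its first TSS and the one closest to the midpoint, at 86017698, 2485 bp from a TSS of Six3 and in an annotated intron of that gene. Nespas, an imprinted transcript on the opposite strand of Gnas, which encodes the stimulatory G protein α subunit, had a region of 1200 bp (chr2:174110401-174111600). This region covered an internal Nespas TSS at 174110936 and also a Gnas TSS 77 bp away. Gm14005, named Morrbid in RefSeq and known to control the lifespan of myeloid cells, had a region of 600 bp (chr2:128254201-128254800) over an internal TSS at 128254629, with the nearest protein-coding TSS 162316 bp away.

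Other known lincRNAs had a region beside the TSS. Airn, an imprinted transcript of the Igf2r locus, had a region of 800 bp (chr17:13006601-13007400) that ended 1397 bp upstream of a TSS. The region of 1700020I14Rik, named Oip5os1 in RefSeq, was a single bin of 200 bp (chr2:119419401-119419600) that ended 433 bp upstream of the TSS. Dleu2, the host of the miR-15a and miR-16 genes, had a region of 1800 bp (chr14:62268401-62270200) 751 bp upstream of a TSS and another of 1000 bp (chr14:62299001-62300000) that lay 1053 bp downstream of another TSS. Snhg5, a host of small nucleolar RNAs with 17 CpG in the printed 200 bases, had a region of 600 bp (chr9:88418001-88418600) whose near edge was 280 bp upstream of the TSS.

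The 5 genes with a region that were matched through RefSeq carry provisional names in GENCODE M1. Gm16197, named Trp53cor1 in RefSeq and known as lincRNA-p21, a p53 target, had a region of 5200 bp (chr17:29214201-29219400) over its TSS at 29215906, which lies 12018 bp from the nearest TSS of the cell cycle inhibitor Cdkn1a. AI854517, the host Mir9-3hg, had 2 regions of 1200 bp. One (chr7:86643801-86645000) ended 3 bp before the TSS at 86645003, and the other (chr7:86659401-86660600) covered a TSS at 86660118. A930011O12Rik, the host Mir124a-1hg, had a region of 4200 bp (chr14:65205601-65209800) over its TSS at 65206952. Among hosts of small nucleolar RNAs, Gm11974 (Snhg15) had a region of 1600 bp (chr11:6425001-6426600) whose near edge was 133 bp downstream of a TSS and another of 400 bp (chr11:6429001-6429400) 238 bp upstream of another TSS. 9430008C03Rik (Snhg17) had a single bin of 200 bp (chr2:158187601-158187800) 285 bp upstream of a TSS, and another of its 8 start sites lay inside a region that was closer to another gene. These 7 regions overlapped no protein-coding gene.

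Of the remaining lincRNAs on these lists, Gas5, Snhg4, Snhg12, Hottip, Fendrr, Cerox1 and Snhg18 had a TSS in a region whose midpoint was closer to another gene. No region was assigned to Meg3, an imprinted gene expressed from the maternal chromosome, and the nearest edge was 22136 bp from its TSS. In the same imprinted cluster Rian was 5013 bp and Mirg 2011 bp from the nearest edge. The distances were 2315 bp at Rmst, a neural lincRNA, 1186 bp at Snhg1, 619 bp at Nkx2-2as, which lies beside the β-cell factor gene Nkx2-2, and 237 bp at Snhg7.

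**Figure D4:**
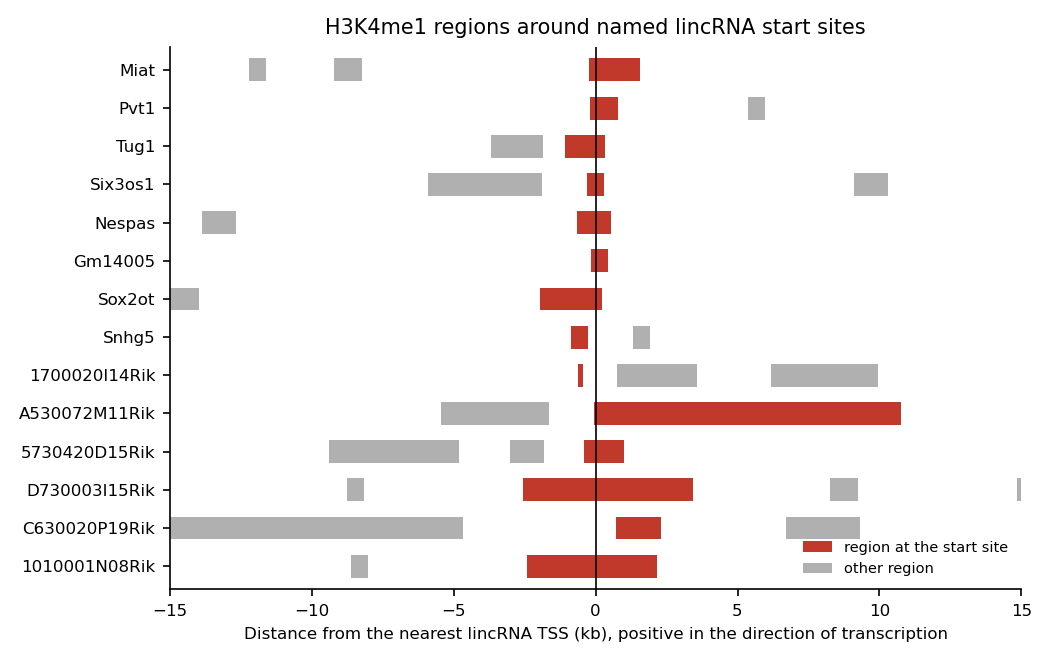
H3K4me1 enriched regions around the TSS of 14 lincRNA genes named in the text (1 row each), by distance from the TSS closest to the region (x axis, Kb, positive in the direction of transcription). Red bars are regions at the lincRNA start site and grey bars other regions, drawn to scale; the region of A530072M11Rik extends 10743 bp into the gene and 56 bp upstream, and that of Miat 1567 bp and 232 bp.

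Regions were also examined beside genes of β-cell function and of inflammation, taking members whose nearest protein-coding TSS within 100 Kb belonged to a listed gene. Of 80 annotated genes on the β-cell list, 4 had such a region (5%; 1.38% to 12.3%), against 482 of all 21418 protein-coding genes (2.25%). There were 10 lincRNA genes with 1 of the 80 as nearest protein-coding gene, 4 of which had a TSS in a region, against 43.8% of all lincRNA genes and 30.0% of all genes. C630020P19Rik, named Pcsk2os1 in RefSeq, starts 179 bp from Pcsk2, the gene of a proinsulin-processing convertase, and had a region of 1600 bp (chr2:143369401-143371000) that began 713 bp downstream of the lincRNA TSS. 1010001N08Rik starts 57 bp from Gata6, a pancreatic developmental factor, and a region of 4600 bp (chr18:11050401-11055000) covered both start sites. At G630016G05Rik, 2129 bp from a TSS of the homeobox gene Meis2, a region of 3800 bp (chr2:115893601-115897400) covered the lincRNA TSS and not that of Meis2. Gm17289, on the opposite strand in an intron of the exocytosis gene Syt7, had a region of 13200 bp (chr19:10465601-10478800). Its TSS, with no CpG in the printed 200 bases, lay 624 bp from the lower edge of the region and 2252 bp from a TSS of Syt7.

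Of 123 annotated genes on the inflammation list, 8 were the nearest protein-coding gene of a lincRNA region (6.50%; 2.85% to 12.4%), against the same 2.25%; the list was chosen with earlier results known. Of lincRNA genes, 7 of the 15 beside such a gene had a TSS in a region, which is near the 43.8% of all lincRNA genes. 5730420D15Rik starts 195 bp from Socs2, a feedback inhibitor of cytokine receptor signaling, and a region of 1400 bp (chr10:94879601-94881000) covered both start sites. A530072M11Rik starts 463 bp from Ripk2, a kinase of the NOD pathway, and its region of 10800 bp (chr4:16091201-16102000) reached 10743 bp into the lincRNA gene and 56 bp upstream, and so did not cover the Ripk2 TSS. Gm16675, 230 bp from Irf2, an interferon regulatory factor, had a region of 1400 bp (chr8:47822801-47824200) that began 669 bp downstream of the lincRNA TSS. The remaining 5 lay further from the listed gene. D730003I15Rik, 41134 bp from the stress factor gene Atf3, had a region of 6000 bp (chr1:193045801-193051800) over a start site with 26 CpG in 200 bases. Gm10425, 11523 bp from Tnfaip2, a TNF induced gene, had a region of 10400 bp (chr12:112666201-112676600). 2310015A10Rik, 19831 bp from Zfp36l1, which promotes mRNA decay, had a region of 7000 bp (chr12:81227201-81234200). Gm17589, 9275 bp from the AP-1 gene Fosb, had a region of 1200 bp (chr7:19886601-19887800) 482 bp upstream of its TSS, and the fifth was Pvt1 with Myc.

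The 10 widest regions ran from 10800 to 52200 bp, and 3 regions shared the width of 10800 bp. D930049A15Rik had the widest (chr14:26280601-26332800). Its TSS lay 13 bp from the lower edge, so that nearly all of the region was upstream of the lincRNA and inside Zmiz1, the gene of a transcriptional coactivator that starts 1573 bp away. The next, of 14000 bp (chr11:74979001-74993000), was centred on the CpG-rich TSS of 1700016P03Rik, with 7061 bp upstream and 6938 bp downstream, and overlapped exons of Hic1, Dph1 and Ovca2. 1700110K17Rik had a region of 12600 bp (chr9:40132801-40145400) that also covered a TSS of Gramd1b 54 bp away, and Gm10565 one of 11000 bp (chr4:141630601-141641600) that covered a TSS of Tmem51 at 332 bp. Gm17422 (12800 bp, chr12:88226201-88239000), Gm16897 (12600 bp, chr1:196801801-196814400) and Gm12299 (11200 bp, chr11:66805801-66817000) had regions that overlapped no protein-coding gene. Gm17489 had one of 11200 bp (chr2:52718801-52730000) in an intron of Fmnl2, an actin regulator. Besides A530072M11Rik, regions of 10800 bp were found at Gm17670, in an intron of Zmiz1, and at A430078I02Rik.

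The gene with the most regions was 2210408F21Rik on chromosome 6, with 4 at separate start sites. They were 5000 bp (chr6:31169001-31174000) and 5800 bp (chr6:31234401-31240200) wide over the TSS, and 400 bp (chr6:31226601-31227000) and 600 bp (chr6:31270801-31271400) wide beside it. The other 20 genes with more than 1 region, Sox2ot and Dleu2 among them, tied at 2.

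Of the 508 genes, 257 bear a provisional Gm name and 215 a RIKEN clone name. A RefSeq gene with this name as its symbol or as a synonym was found for 327 (64.4%), too few to set shares by RefSeq type against each other. Of these, 14 are protein-coding in RefSeq, Bbip1, Ttc28, Tdrd5 and Ppp1r3e among them, which were named after their values were seen. Over all lincRNA genes, 25 of 715 matched in this way are protein-coding in RefSeq. Whether the start sites used here belong to the coding transcripts was not tested.

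lincRNA genes that hold a microRNA gene on the same strand were looked at after the other values were seen. There were 29 of them, of which 14 had a TSS in a region (48.3%; 29.45% to 67.5%), near the 43.8% of all lincRNA genes. Of the 29, 12 (41.4%) were the closest gene of a region, as were 508 of all 1232 lincRNA genes. In 15 of the 29 the microRNA gene has a Mir name in GENCODE M1. Of these 15, 9 had a TSS in a region (60%; 32.3% to 83.7%) and 6 were the closest gene of a region. The rest of the 29, such as Dleu2, hold microRNA genes named by clone only. The mature sequences at 3 of the 6 follow, as given by RefSeq, with the seed at bases 2 to 8 in capitals.
mmu-miR-132-3p: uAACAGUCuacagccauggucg
mmu-miR-212-3p: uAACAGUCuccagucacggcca
mmu-miR-9-5p: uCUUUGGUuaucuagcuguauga
mmu-miR-135a-5p: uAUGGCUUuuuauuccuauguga
miR-132-3p and miR-212-3p share the seed AACAGUC and lie in 1700016P03Rik, whose region of 14000 bp is described above. miR-9-5p is encoded by Mir9-2 in C130071C03Rik, which had a region of 400 bp (chr13:83860401-83860800) beside a TSS at 83861160 and another TSS inside a region, and miR-135a-5p by Mir135a-1 in D030055H07Rik, which had a region of 600 bp (chr9:106050801-106051400) over its TSS at 106051018. Matching by gene symbol gave a RefSeq mature sequence for 6 of the 7 microRNA genes with such a name in the 6 lincRNA genes. Mir124a-1 lies in A930011O12Rik, described above. The first TSS of A330023F24Rik, which holds Mir29b-2 and Mir29c, was inside the 12600 bp region of Gm16897. The gene of Mir155, an inflammatory microRNA, is annotated as lincRNA and had its nearest region edge 9268 bp from the TSS.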

How the data were processed

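H3K4me1 ChIP-seq was measured in 1 library of cytokine treated islets. The authors mapped the reads to NCBI37/mm9 with Bowtie2 (version 2.2.1, per the labels) and called enriched regions with ChromHMM, whose version is not given in the sources used here. The deposited list holds chromosome, start and end. According to the methods, regions of both conditions were then merged and filtered on FPKM; whether the list precedes this is not stated.

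Starts were moved by 1 to count from 1. TSS and gene types came from GENCODE M1 and sequence from mm9; RefSeq tables (GRCm38.p6) gave names and mature microRNAs only. The closest TSS was that of any transcript, measured from the middle of the region. Genes on chromosome X, unplaced sequences and mitochondrial DNA were left out. Shares have exact binomial (Clopper-Pearson) intervals at 95% and medians exact order-statistic intervals. The rule, the call of a TSS inside a region and the merging of regions were tested on simulated data, and the other steps were not. Named genes were those of 4 lists, those at the 10 widest regions, the 5 with most regions (cut by ties at 2) and those beside a listed gene. Genes at the distance limit, microRNA hosts and some genes that are protein-coding in RefSeq were named besides. The regions, rules and lists were chosen with earlier results of these data known. Alternatives were regions of at least 1000 bp, merged regions, other distances, the nearest edge, the first TSS and a longer sequence window. Intervals used scipy 1.17.1, sequence pysam 0.24.0, tables pandas 2.3.3 and numpy 2.4.6, and plots matplotlib 3.10.9, under Python 3.11.15.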

Additional observations from a re-analysis of the deposited data

Results flagged for a closer look

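Chromosome X lies outside the rule and so outside the values above. On it, 12 of 526 regions had a lincRNA TSS as the closest one within 2 Kb or inside, and were found in data that no comparison above uses. A region held a TSS of 4 of the 41 lincRNA genes on this chromosome, or 9.76% (95% exact binomial interval 2.72% to 23.1%), against 43.8% on chromosomes 1 to 19. Of all 2599 annotated genes on chromosome X, 57 had a TSS in a region (2.19%; 1.67% to 2.83%), against 30.0% on chromosomes 1 to 19, so the low share is not particular to lincRNAs.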

How the results depend on the processing

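Over 16 results, 44 of 64 values under an alternative moved by less than their interval or, for counts, by less than 1.5 times, and 20 moved further. Without regions under 1000 bp, the median width was 2200 bp, with a covering share of 76.6%, 39.3% of lincRNA genes with a TSS in a region and 36.4% with the first TSS in one; narrow regions are left out by construction. Measured from the nearest edge, 802 regions met the rule, with a median of 2000 bp in width, a protein-coding TSS within 2 Kb at 60.8%, 48.1% inside a protein-coding gene and a median CpG ratio of 0.633. By construction every TSS inside a region is then at distance 0, so a region with a lincRNA TSS inside is kept whichever other gene shares it. A limit of 1000 bp gave a covering share of 78.3%. With the first TSS of each gene only, 40.3% of lincRNA genes had a TSS in a region, 55.9% of regions had a protein-coding TSS within 2 Kb and 47.4% lay inside a protein-coding gene. A window from 500 before to 100 bases after the TSS held TATAAA at 14.3% of lincRNA starts inside a region, CCAAT at 55.7%, GGGCGG at 59.96%, GGGNNTTCC at 12.5%, TTCNNNGAA at 11.3%, GAAANNGAA at 15.7% and TGANTCA at 13.5%, since a longer window holds more matches. Unless stated, the cause was not tested. Regions of at least 400 bp and merged regions moved no value this far. Leaving out tied start sites removed nothing, since there were 0 ties, and is not counted here. TSS of lincRNA and protein-coding genes alone, an alternative added after seeing the data, gave 549 regions at 523 genes. No paired analysis was possible because 1 library was analysed, and no replicate could be left out. The depth of the library is unknown, so no share could be set against it.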
